A study of Homo sapiens with 27 samples.

Results

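The transcripts described here are 5 surface ligands through which a natural killer (NK) cell holds or is switched on by its target. They were chosen by name, with earlier results of these data known. They are PVR and NECTIN2 (ligands of DNAM-1), NCR3LG1 (ligand of NKp30), and ICAM1 and CD58 (ligands of the adhesion receptors LFA-1 and CD2). Each matched 1 probe set, so 5 of 5 members were measured among 17687 named genes. RNA came from the human colorectal cancer lines LIM1215, SW48 and Caco2 on 27 single-colour Affymetrix whole-transcript arrays, 3 for each of 3 states of each line. Parental cells were the untreated line, grown from a single clone per the labels' protocols. Resistant cells had survived 20 cycles of challenge, in which 1000000 NK-CD16 cells and cetuximab at 1 ug per ml were added to 1000000 cancer cells seeded in a 10 cm dish. Cetuximab is an antibody against EGFR, and NK-CD16 cells carry the Fc receptor that recognises antibody on a target. Withdrawal cells were resistant cells grown for another 20 cycles without treatment. The design asks what differed in the survivors and what was still different after the challenge ended. The labels do not say whether replicates came from separate cultures, so p-values measure the spread between these arrays only, which may be technical.

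Before an NK cell kills, it binds its target through adhesion pairs: ICAM1 is held by the integrin LFA-1, and CD58 by CD2. Activating receptors then read the target surface. DNAM-1 (gene CD226) recognises PVR and NECTIN2, for which the receptors TIGIT, CD96 and PVRIG compete, and NKp30 (gene NCR3) recognises NCR3LG1, also called B7-H6. In epithelial cells PVR and NECTIN2 also serve cell-to-cell contact, and ICAM1 is known for its induction by NF-kappaB and by interferon gamma.

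Promoters are shown for ICAM1, some of whose known inputs were measured, and for the DNAM-1 ligands, which moved in opposite directions in SW48. Each sequence is the 250 bases before the RefSeq gene start on the plus strand of GRCh38.p14, 5' to 3'. Capitals mark matches, on either strand, to a kB site (GGAAATTCC), a gamma-activated site (TTCNNNGAA), a GC box (GGGCGG) or a TATA box (TATAAA).
ICAM1 (chr19:10270870-10271119): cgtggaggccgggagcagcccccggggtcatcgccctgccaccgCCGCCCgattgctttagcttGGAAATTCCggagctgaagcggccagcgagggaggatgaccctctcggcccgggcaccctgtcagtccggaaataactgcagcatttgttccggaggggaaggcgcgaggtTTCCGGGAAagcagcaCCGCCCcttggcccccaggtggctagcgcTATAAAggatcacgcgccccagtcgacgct
NECTIN2 (chr19:44846047-44846296): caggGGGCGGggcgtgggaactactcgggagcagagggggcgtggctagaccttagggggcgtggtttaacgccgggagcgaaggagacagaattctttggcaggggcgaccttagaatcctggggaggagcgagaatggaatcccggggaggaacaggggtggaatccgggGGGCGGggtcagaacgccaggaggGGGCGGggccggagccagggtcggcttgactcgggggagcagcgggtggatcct
PVR (chr19:44643660-44643909): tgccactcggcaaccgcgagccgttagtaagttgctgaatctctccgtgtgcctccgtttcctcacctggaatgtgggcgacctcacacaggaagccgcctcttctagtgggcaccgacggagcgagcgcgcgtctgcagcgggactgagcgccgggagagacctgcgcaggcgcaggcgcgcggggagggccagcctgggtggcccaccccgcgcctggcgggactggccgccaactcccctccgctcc
The ICAM1 window holds a kB site whose leftmost base is at position -186 from the gene start, a gamma-activated site at -75, a TATA box at -30 and GC boxes at -206 and -59. None of these motifs overlapped another. Among 35116 RefSeq promoter windows of the same length, 0.413% hold that kB site, 6.57% a gamma-activated site, 10.7% the TATA box and 42.6% a GC box. NECTIN2 has GC boxes at -246, -78 and -54, and the PVR window holds none of these motifs. The windows of NCR3LG1 (chromosome 11) and CD58 (chromosome 1), not shown, matched GC boxes only. An AP-1 site (TGANTCA, in 6.57% of windows) and a cAMP response element (TGACGTCA, in 1.65%) were searched too and matched in none of the 5 windows. A match is a run of letters and not a measured binding site.

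The values are deposited log2 intensities. The median over genes lay at 7.904 to 8.052 per array in LIM1215, 6.432 to 6.542 in SW48, and 6.989 to 7.081 in Caco2, so levels were compared only within a line. A group was called near background when its mean lay under a floor, the 95th percentile of negative-control probe sets averaged over the group's arrays, which was between 6.722 and 7.99 in the 9 groups. The epithelial markers EPCAM, CDH1, KRT8, KRT18, KRT19 and CDX2 were above background in all 9 groups, while CDH17, CDX1, VIL1, LGALS4 and GPA33 were near background in SW48, and CDX1, LGALS4 and GPA33 in Caco2. Of 18 measured NK and T lymphocyte markers, 11 were above background in resistant LIM1215 arrays, 2 in SW48 and 8 in Caco2, against 0, 1 and 0 in the parental and again in the withdrawal arrays of these lines. LIM1215 parental replicate 3 stood apart from the other replicates (r = 0.9871 at the lowest within that group, against 0.9946 or more in the other groups). The antiviral gene IFIT1 read 13.16 in it and 6.17 and 6.82 in the others. Each member's change from LIM1215 parental cells is given with and without that array. The genes that passed were then 2603 in place of 1913 for resistant cells and 5019 in place of 3724 for withdrawal cells.

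Of the 45 member comparisons within a line, 26 passed at an adjusted p under 0.05 (limma, with Benjamini-Hochberg adjustment over all 17687 genes): 7 of 9 for NCR3LG1 and for ICAM1, 5 for PVR, 4 for CD58 and 3 for NECTIN2. In the 9 comparisons taken singly, 4.08% to 27.9% of all genes passed. The ICAM1 count includes calls in SW48, where ICAM1 was near background in every state. From parental to resistant cells 2 of 5 members passed in LIM1215, where 10.8% of all genes did. Of the members 0 were higher and 2 lower, against 5.42% and 5.39% of genes. In SW48 5 of 5 passed (22.7% of genes), 3 higher and 2 lower (10.9% and 11.8%). Of the 3 higher in SW48, ICAM1 was near background in both groups and CD58 in parental cells. CD58 kept its call there under only 6 of 14 alternatives. In Caco2 2 of 5 passed (27.4% of genes), 1 higher and 1 lower (12.9% and 14.5%). The resistant and parental arrays did not overlap for 2, 4 and 3 members in LIM1215, SW48 and Caco2, against 23.7%, 35.5% and 39.9% of genes. No member passed in the same direction in all 3 lines. The share of all genes that did was not counted. The median change of the 5 was -0.14 in LIM1215, 0.59 in SW48 and -0.09 in Caco2, beside -0.028, -0.002 and -0.026 over all genes. The SW48 median was the change of CD58.

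Between resistant and withdrawal cells 4 of 5 members passed in LIM1215 (27.9% of genes), 2 higher and 2 lower after withdrawal (13.6% and 14.4%). In SW48 5 of 5 passed (22.2% of genes), 2 higher and 3 lower (11.1% of genes each way), and in Caco2 2 of 5 (24.7% of genes), 1 higher and 1 lower (12.1% and 12.5%). Of the 3 lower in SW48, ICAM1 was near background in both groups and CD58 in withdrawal cells. The arrays did not overlap for 5, 5 and 3 members in these lines, against 46%, 35.5% and 38.9% of genes. The Caco2 share of members was the nearest to its background.

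**Figure D1:**
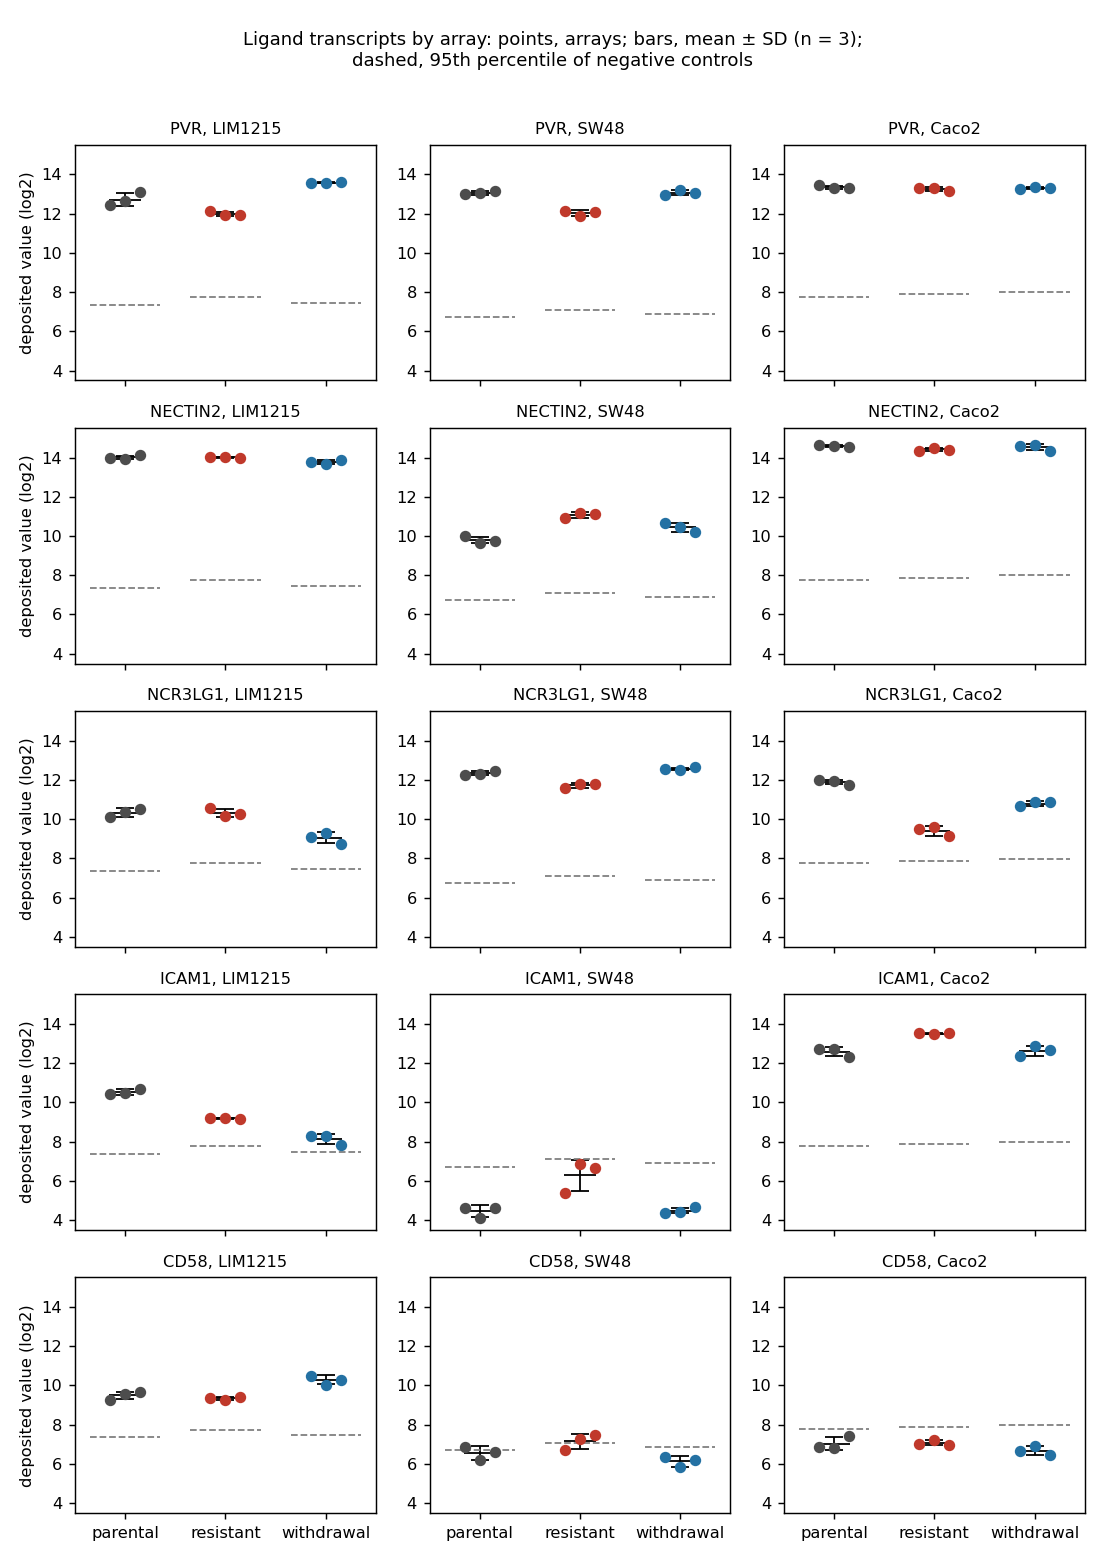
Deposited log2 value (vertical axis) of each ligand on each array, by line and state; points are arrays, bars the mean and SD of 3 arrays, and dashed lines the mean 95th percentile of negative controls. PVR in resistant SW48 arrays lies at 11.89 to 12.15, below the 12.97 to 13.20 of the other SW48 arrays, and ICAM1 in SW48 lies under the dashed line in every state.

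PVR, the poliovirus receptor and a high-affinity ligand of DNAM-1, was lower in resistant cells of LIM1215 and SW48 and higher after withdrawal. In LIM1215 it read 12.42, 12.63 and 13.09 on parental arrays, 12.12, 11.91 and 11.91 on resistant arrays, and 13.56, 13.57 and 13.60 on withdrawal arrays. The 3 groups did not overlap, and withdrawal cells had the highest level. From parental to resistant cells PVR fell by 0.73 log2 (SE 0.13, 1.66-fold, adjusted p = 0.000304, limma), and without parental replicate 3 by 0.55 (SE 0.111, adjusted p = 0.00129). Withdrawal cells lay 1.60 above resistant cells (SE 0.13, 3.03-fold, adjusted p = 2.89e-09) and 0.86 above parental cells (SE 0.13, adjusted p = 5.75e-05; 1.05 without parental replicate 3). The level after withdrawal thus passed the starting level.

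In SW48 PVR read 12.98, 13.05 and 13.16 in parental, 12.15, 11.89 and 12.07 in resistant, and 12.97, 13.20 and 13.05 in withdrawal cells. All 3 resistant arrays were below the other 6, which overlapped each other. The fall from parental to resistant cells was -1.02 (SE 0.13, 2.03-fold, adjusted p = 2.45e-06), larger in size than the change of 93% of genes. From resistant to withdrawal cells PVR rose by 1.04 (adjusted p = 1.95e-06). Withdrawal and parental cells differed by 0.02, with a 95% interval of -0.25 to 0.28 (adjusted p = 0.982). In Caco2 the 9 arrays lay between 13.17 and 13.44, and the 3 groups overlapped. Resistant minus parental was -0.09 there (interval -0.36 to 0.18) and withdrawal minus parental -0.04 (-0.31 to 0.23).

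The change of PVR in resistant cells differed from that in Caco2 by -0.64 in LIM1215 (SE 0.183, adjusted p = 0.0131) and by -0.93 in SW48 (SE 0.183, adjusted p = 0.000459). Between LIM1215 and SW48 it differed by 0.29 (interval -0.09 to 0.67, adjusted p = 0.328), though it passed without LIM1215 parental replicate 3 (0.48, adjusted p = 0.0253) and with array weights (adjusted p = 0.045). After withdrawal the excess over parental cells was greater in LIM1215 than in SW48 by 0.85 (adjusted p = 0.00335) and than in Caco2 by 0.90 (adjusted p = 0.0019).

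NECTIN2, the other DNAM-1 ligand and a component of epithelial adherens junctions, moved in SW48 alone among the tests that passed, and there against PVR. On SW48 arrays it read 9.98, 9.64 and 9.77 in parental, 10.92, 11.18 and 11.13 in resistant, and 10.65, 10.47 and 10.20 in withdrawal cells. Every resistant array exceeded every withdrawal array, and these exceeded every parental one. NECTIN2 rose by 1.29 from parental to resistant cells (SE 0.122, 2.44-fold, adjusted p = 3.24e-08). It then fell by 0.64 (SE 0.122, adjusted p = 0.000352), which left it 0.65 above parental cells (SE 0.122, 1.56-fold, adjusted p = 0.00267). That remaining excess did not pass when only the 9 SW48 arrays were fitted (adjusted p = 0.0631). It was the only member that passed between withdrawal and parental SW48 cells, 1 of 5 where 4.08% of all genes passed.

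In LIM1215 NECTIN2 lay between 13.95 and 14.11 in parental, 13.96 and 14.03 in resistant, and 13.67 and 13.88 in withdrawal cells. Resistant minus parental was -0.01 (interval -0.27 to 0.24), and 0.03 without parental replicate 3. The withdrawal arrays were the lowest without overlap, but the differences of -0.25 from parental (interval -0.50 to 0.00, adjusted p = 0.163; -0.20 without parental replicate 3) and -0.24 from resistant cells (adjusted p = 0.163) did not pass. In Caco2 it lay between 14.34 and 14.65 on all arrays, with resistant minus parental at -0.17 (interval -0.42 to 0.08). The resistant change was higher in SW48 than in Caco2 by 1.46 (SE 0.172, adjusted p = 8.29e-07) and lower in LIM1215 than in SW48 (-1.30, SE 0.172, adjusted p = 6.89e-06). The DNAM-1 ligands thus went apart in SW48, and in LIM1215 PVR fell with no change of NECTIN2 passing.

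NCR3LG1, the B7 family ligand that switches on NKp30, showed the largest change of any member. On Caco2 arrays it read 11.99, 11.93 and 11.76 in parental, 9.50, 9.61 and 9.12 in resistant, and 10.67, 10.86 and 10.85 in withdrawal cells. The 3 groups were apart, with withdrawal cells between the others. It fell by 2.48 in resistant cells (SE 0.155, 5.59-fold, adjusted p = 1.38e-11), a greater change than in 97.8% of genes. From resistant to withdrawal cells it rose by 1.39 (SE 0.155, 2.61-fold, adjusted p = 2.65e-07) and remained 1.10 below parental cells (a change of -1.10, SE 0.155, 2.14-fold, adjusted p = 6.9e-05). It was the 1 member of 5 that passed between withdrawal and parental Caco2 cells, where 5.28% of genes did.

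On SW48 arrays NCR3LG1 read 12.24, 12.32 and 12.46 in parental, 11.57, 11.80 and 11.78 in resistant, and 12.54, 12.51 and 12.64 in withdrawal cells. Resistant arrays were the lowest, and withdrawal arrays lay above the parental ones with a small gap. The fall in resistant cells was -0.62 (SE 0.155, 1.54-fold, adjusted p = 0.0044) and the later rise 0.85 (SE 0.155, adjusted p = 0.000229). Withdrawal minus parental was 0.22 (interval -0.10 to 0.55, adjusted p = 0.554).

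LIM1215 had another order. NCR3LG1 read 10.09, 10.36 and 10.54 in parental and 10.57, 10.17 and 10.24 in resistant cells, but 9.08, 9.31 and 8.75 in withdrawal cells. Parental and resistant arrays overlapped (difference 0.00, interval -0.32 to 0.32; 0.10 without parental replicate 3), and the withdrawal arrays were lowest. Against parental cells the withdrawal cells differed by -1.28 (SE 0.155, 2.43-fold, adjusted p = 5.31e-06), or -1.18 without parental replicate 3, and against resistant cells also by -1.28 (adjusted p = 1.13e-06). The fall in resistant cells was greater in Caco2 than in LIM1215 by 2.48 (SE 0.219, adjusted p = 1.2e-08) and than in SW48 by 1.86 (SE 0.219, adjusted p = 7.79e-07). Between LIM1215 and SW48 the difference was 0.62 (interval 0.16 to 1.07, adjusted p = 0.0534). It passed under 5 alternatives, among them leaving out LIM1215 parental replicate 3 or resistant replicate 2.

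ICAM1, the immunoglobulin-type adhesion molecule that LFA-1 binds, fell in LIM1215 and rose in Caco2. On LIM1215 arrays it read 10.42, 10.46 and 10.67 in parental, 9.22, 9.18 and 9.16 in resistant, and 8.28, 8.28 and 7.81 in withdrawal cells. The groups did not overlap, and each state lay below the one before it. The change was -1.33 from parental to resistant (SE 0.25, 2.51-fold, adjusted p = 0.000606), -1.07 from resistant to withdrawal (SE 0.25, 2.09-fold, adjusted p = 0.00223) and -2.40 from parental to withdrawal cells (SE 0.25, 5.26-fold, adjusted p = 9e-07). That last change exceeded in size those of 99.6% of genes. Without parental replicate 3 the changes from parental cells were -1.25 (adjusted p = 0.00333) and -2.32 (adjusted p = 1.57e-06).

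On Caco2 arrays ICAM1 read 12.69, 12.72 and 12.33 in parental, 13.52, 13.46 and 13.53 in resistant, and 12.36, 12.85 and 12.67 in withdrawal cells. The resistant arrays were above all others, and the parental and withdrawal arrays overlapped. It rose by 0.93 (SE 0.25, 1.9-fold, adjusted p = 0.00657) and then fell by 0.88 (SE 0.25, adjusted p = 0.0111; -0.74 with adjusted p = 0.0639 without withdrawal replicate 1). Withdrawal minus parental was 0.05 (interval -0.47 to 0.57). In SW48 ICAM1 was near background in all states. It read 4.62, 4.12 and 4.63 in parental, 5.36, 6.83 and 6.63 in resistant, and 4.37, 4.43 and 4.64 in withdrawal cells. The resistant values were higher by 1.81 (SE 0.25, adjusted p = 7.32e-06), but every array was below its negative-control percentile, so no fold is given. The change in resistant cells was lower in LIM1215 than in Caco2 by a difference of -2.25 (SE 0.353, adjusted p = 4.33e-05).

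CD58, or LFA-3, the ligand by which CD2 docks to a target, was above background in every LIM1215 state. It read 9.28, 9.54 and 9.66 in parental, 9.38, 9.27 and 9.41 in resistant, and 10.50, 10.04 and 10.29 in withdrawal cells. Parental and resistant arrays overlapped, with a difference of -0.14 (interval -0.56 to 0.29; -0.06 without parental replicate 3), and all withdrawal arrays were higher. CD58 rose by 0.92 from resistant to withdrawal cells (SE 0.205, 1.89-fold, adjusted p = 0.00146) and lay 0.78 above parental cells (SE 0.205, 1.72-fold, adjusted p = 0.00821). The latter did not pass without parental replicate 1 (0.68, adjusted p = 0.0556) and was 0.87 without parental replicate 3 (adjusted p = 0.0061).

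In SW48 CD58 read 6.86, 6.20 and 6.60 in parental, 6.71, 7.27 and 7.47 in resistant, and 6.34, 5.83 and 6.22 in withdrawal cells. Only the resistant mean, 7.147, was above background (7.08), with 2 of 3 arrays above. The parental and resistant arrays overlapped. The difference of 0.59 (SE 0.205, at least 1.25-fold, adjusted p = 0.0404) lost the call under 8 of 14 alternatives (adjusted p 0.00712 to 0.225), among them leaving out parental replicate 2 or 3 or resistant replicate 2 or 3. The later fall of 1.02 (a change of -1.02, SE 0.205, at least 1.2-fold, adjusted p = 0.000647) kept its call in all 14 of its alternatives. In Caco2 CD58 was near background in all states (6.47 to 7.41), and none of its 3 comparisons passed.

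**Figure D2:**
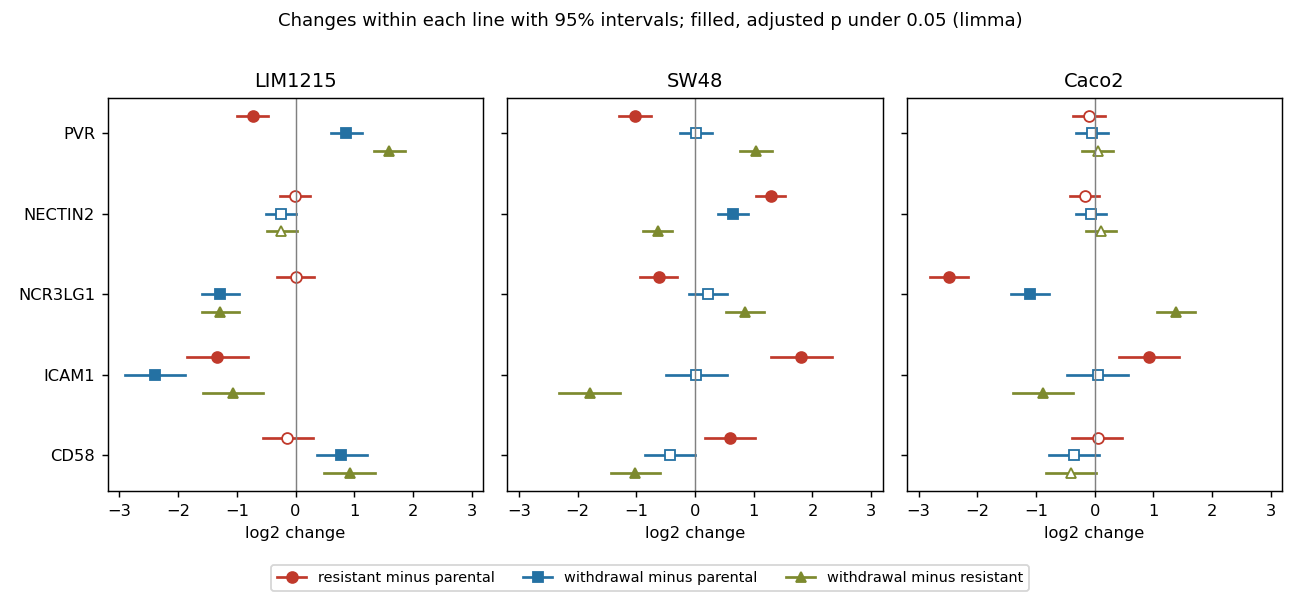
Log2 change of each ligand within each line (horizontal axis) with its 95% interval, for the 3 comparisons of states; filled symbols passed at an adjusted p under 0.05. LIM1215 has 4 filled symbols for withdrawal minus parental, where SW48 has 1 (NECTIN2) and Caco2 has 1 (NCR3LG1).

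After withdrawal, 4 of 5 members differed from parental cells in LIM1215, where 21.1% of all genes passed. PVR and CD58 were higher (9.89% of genes were) and NCR3LG1 and ICAM1 lower (11.2% of genes). The count was also 4 without parental replicate 3. Of these members, ICAM1 alone had passed in the same direction in resistant LIM1215 cells. PVR had passed there in the opposite direction, and NCR3LG1 and CD58 had not passed. In SW48 1 member was higher and 0 lower, against 1.78% and 2.3% of genes, and in Caco2 0 were higher and 1 lower, against 2.73% and 2.54%. The withdrawal arrays did not overlap the parental ones for 5 members in LIM1215, 2 in SW48 and 1 in Caco2, against 31.6%, 22.1% and 23.4% of genes. The median change of the 5 was -0.25, 0.02 and -0.06 in these lines, beside 0.005, 0 and -0.016 over all genes. In SW48, PVR, NCR3LG1, ICAM1 and CD58 passed in resistant cells, passed in the opposite direction after withdrawal, and did not pass between withdrawal and parental cells. ICAM1 did so in Caco2, and no member in LIM1215. In SW48 ICAM1 was near background in every state, and CD58 in parental and withdrawal cells. The share of all genes with this course was not counted. In the 3 SW48 comparisons taken singly, 22.7%, 22.2% and 4.08% of genes passed. Of 15 tests that set the withdrawal minus parental change of 1 line against another's, 10 passed, and for LIM1215 against SW48 all 5 did, where 13.3% of genes passed. For LIM1215 against Caco2 the count was 3 of 5 (13.4% of genes) and for SW48 against Caco2 2 of 5 (5.31%). For resistant minus parental the counts were 2 of 5 between LIM1215 and SW48 (18.3% of genes), 3 between LIM1215 and Caco2 (21.3%) and 3 between SW48 and Caco2 (25.9%). Within a line the comparisons share arrays and are not independent of each other.

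**Figure D3:**
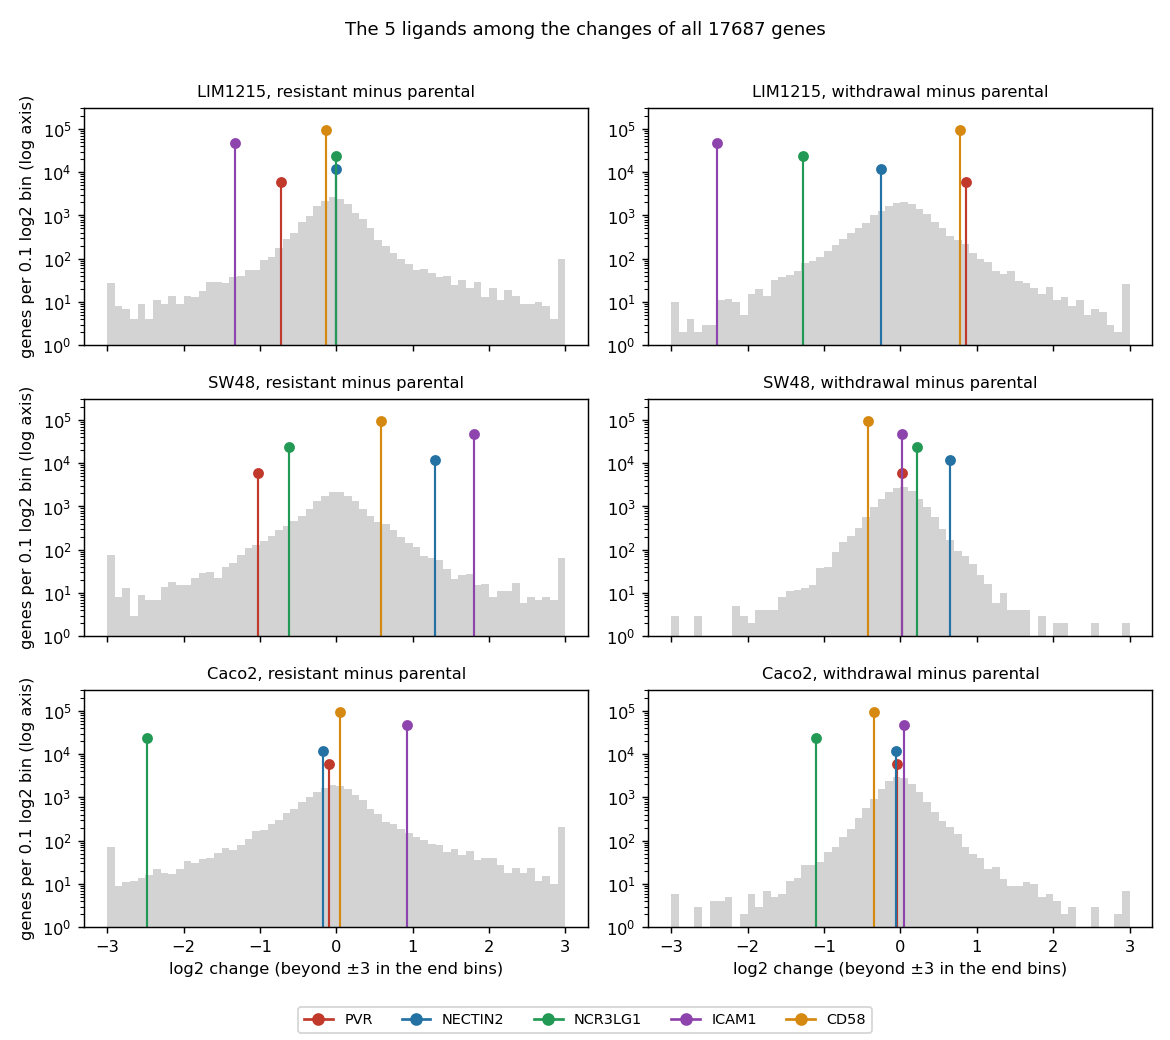
Histograms of the log2 change of all genes (genes per bin on a log axis) for resistant minus parental and withdrawal minus parental in each line, with a coloured stem at each ligand's change; stem heights carry no value, and the end bins hold changes beyond the axis. NCR3LG1 at -2.48 in resistant Caco2 cells and ICAM1 at -2.40 in withdrawal LIM1215 cells lie farthest out.

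Lymphocyte transcripts as a list were higher in resistant cells, and NK cells are known to carry ICAM1 and CD58 themselves. Of 18 NK and T markers 15 passed as higher and 0 as lower in resistant LIM1215 cells, 9 and 1 in SW48, and 16 and 0 in Caco2. The shares of all genes that passed as higher and lower were 5.42% and 5.39%, 10.9% and 11.8%, and 12.9% and 14.5%. The log2 of the summed intensity of the 18 NK and T markers was 8.538 to 8.771 on parental, 12.71 to 12.98 on resistant and 8.519 to 8.694 on withdrawal LIM1215 arrays. In SW48 it was 8.336 to 8.568, 9.348 to 10.12 and 9.57 to 9.739, and in Caco2 7.86 to 8.004, 11.87 to 12.31 and 7.686 to 7.787. The SW48 withdrawal range thus lay inside the resistant one. The marker above background there was PTPRC (CD45), which in SW48 went against the list: it had means of 7.72 in parental, 5.874 (near background) in resistant and 9.341 in withdrawal cells. Its changes were -1.85 (adjusted p = 7.35e-08) from parental to resistant and 3.47 (adjusted p = 1.68e-12) from resistant to withdrawal cells. Of these markers GNLY, GZMA, NKG7 and PRF1 were near background in all parental and withdrawal groups. Of 8 measured B cell and myeloid markers, 1 passed as higher and 0 as lower in resistant LIM1215 cells (1 and 1 without parental replicate 3), 2 and 0 in SW48, and 4 and 0 in Caco2. In either direction 10.8%, 22.7% and 27.4% of all genes passed, and the LIM1215 and SW48 counts lay near these shares. The summed level of the 8 markers was 10.11 to 10.45 on parental, 13.57 to 13.64 on resistant and 11.34 to 11.64 on withdrawal Caco2 arrays, and 7.099 to 7.396, 9.157 to 9.528 and 8.116 to 8.512 in SW48. In LIM1215 it was 11.25 to 12.46, 11.13 to 11.43 and 12.51 to 12.61. The genes with the largest of these changes were LYZ (lysozyme) in Caco2 (4.53) and CD68, a lysosomal protein, in SW48 (2.60) and Caco2 (2.83). Untreated parental cells already had some of these markers above background: CD14, LYZ and CSF1R in Caco2, and LYZ and CD68 in LIM1215. The part of RNA from lymphocytes or other immune cells in the values of the members was not tested. In a bulk sample, fewer cells of a type and less RNA per cell cannot be told apart. In parental and in withdrawal LIM1215 cells 0 of the 18 NK and T markers were above background, while CD68 was above it in both. Whether immune cell RNA had a part in the differences between these states was not tested.

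Of 9 genes for the DNAM-1 receptors, the other nectins and their partners, 2 passed as higher and 1 as lower in resistant LIM1215 cells, 3 and 1 in SW48, and 5 and 2 in Caco2 (medians 0.23, 0.40 and 0.50). Over all genes 5.42% and 5.39%, 10.9% and 11.8%, and 12.9% and 14.5% passed as higher and lower in these comparisons, which is the background for this list and those that follow. Between 5 and 6 of the 9 genes were near background in both groups of these comparisons, CD226, TIGIT and PVRIG among them. Of the genes that passed as higher, 2 in LIM1215, 1 in SW48 and 2 in Caco2 had a resistant mean above background. Of those lower, 0, 1 and 2 had a parental mean above it. The medians were the changes of CRTAM in LIM1215 and Caco2 and of CADM1 in SW48, each near background in both groups. CD96, an inhibitory NK and T cell receptor for PVR, rose by 6.53 in LIM1215 (SE 0.283, at least 3.74-fold), 4.49 in SW48 (at least 1.35-fold) and 5.66 in Caco2 (at least 2.55-fold), together with the lymphocyte markers above, and was near background in all withdrawal cells. Among the epithelial members, NECTIN1 changed by -0.96 in SW48 (SE 0.153, adjusted p = 4.71e-05) and 0.93 in Caco2 (SE 0.153, adjusted p = 4.89e-05). NECTIN3, a junction partner of the other nectins, rose by 0.95 in LIM1215 (SE 0.227, adjusted p = 0.00606), or by 0.55 without parental replicate 3. The 2 lower genes in Caco2 were NECTIN3 (-0.67) and CADM1, an adhesion molecule bound by the lymphocyte receptor CRTAM (-0.82). In withdrawal LIM1215 cells the 3 genes of this list that passed went both ways: NECTIN1 was 1.13 higher than in parental cells (SE 0.153, adjusted p = 1.82e-05; 1.07 without parental replicate 3), NECTIN3 changed by -1.08 (adjusted p = 0.0015; -1.48 without it) and CADM1 by -0.79 (adjusted p = 0.000303; -0.82 without it).

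Of 6 genes of the NKp30 axis and the B7 family, 1 passed as higher and 2 as lower in resistant LIM1215 cells, 1 and 1 in SW48, and 1 and 0 in Caco2 (medians -0.14, -0.03 and 0.05). In either direction that is 3, 2 and 1 of 6, where 10.8%, 22.7% and 27.4% of all genes passed. The gene that passed as higher in each line was the receptor gene NCR3, which was near background in all groups. In Caco2 no other gene of the list passed. LGALS3, a galectin known to bind NKp30 and block it, fell in SW48 by 1.80 (SE 0.131, 3.48-fold, adjusted p = 4.01e-10), beside the fall of NCR3LG1 there. The B7 family genes HHLA2 (-1.39, SE 0.237, adjusted p = 0.000205; -1.23 without parental replicate 3) and CD276 (-0.65, SE 0.135, adjusted p = 0.0017; -0.72 without it) fell in resistant LIM1215 cells, where NCR3LG1 did not pass. BAG6, a chaperone that can act as an NKp30 ligand when released, had changes of -0.14, 0.19 and -0.01 in resistant LIM1215, SW48 and Caco2 cells that did not pass.

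The 9 measured genes of the ICAM and LFA-1 axis, with ICAM2 to ICAM5 and the LFA-1 chains ITGAL and ITGB2, were near background in both groups of all 9 comparisons, while ICAM1 itself was above background in LIM1215 and Caco2. Of 7 genes of the CD2 and CD58 axis, 4 passed as higher and 1 as lower in LIM1215, 3 and 0 in SW48, and 6 and 0 in Caco2, where 10.8%, 22.7% and 27.4% of all genes passed in either direction. Of the genes that passed as higher, 0 in LIM1215, 0 in SW48 and 1 in Caco2 (CD59) had a resistant mean above background. CD2, CD48, CD244 and SLAMF7 were near background in all groups, and SLAMF6 was so in SW48 and Caco2. CD59, an inhibitor of complement lysis, changed by -0.51 in LIM1215 (SE 0.118, adjusted p = 0.00481; -0.60 without parental replicate 3) and 0.69 in Caco2 (SE 0.118, adjusted p = 7.43e-05), the same signs as ICAM1 in these lines.

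Of 11 measured genes that feed or report the NF-kappaB and interferon gamma inputs of ICAM1, 3 rose and 3 fell in resistant LIM1215 cells, 5 and 4 in SW48, and 6 and 1 in Caco2 (medians -0.28, 0.22 and 0.64; without LIM1215 parental replicate 3, 4 rose and 2 fell in LIM1215 with a median of 0.06). The shares of all genes that passed were again 10.8%, 22.7% and 27.4%. IRF1, a transcription factor induced by interferon gamma, rose in all 3 lines: by 3.13 in LIM1215 (SE 0.249, 8.74-fold; 3.58 without parental replicate 3), 1.73 in SW48 (3.33-fold) and 3.36 in Caco2 (at least 7.82-fold). ICAM1 fell in the first of these and rose in the last. CXCL8, a chemokine driven by NF-kappaB, fell by 2.53 in LIM1215 (SE 0.255, 5.79-fold, adjusted p = 1.22e-07; a change of -2.13 without parental replicate 3), the direction of ICAM1. After withdrawal CXCL8 was 0.91 above parental LIM1215 cells (SE 0.255, adjusted p = 0.0125; 1.31 without parental replicate 3) while ICAM1 was lower still. TNFAIP3, an NF-kappaB feedback inhibitor, rose by 1.02 in LIM1215 (1.28 without parental replicate 3), 1.65 in SW48 (SE 0.163, adjusted p = 6.07e-08) and 1.39 in Caco2. CEBPB, a factor of the acute-phase response, changed by -1.53 in SW48 and -1.69 in Caco2 (SE 0.422, adjusted p = 0.0036). In resistant LIM1215 cells CEBPB changed by -0.28 (adjusted p = 0.787), but by 0.62 with adjusted p = 0.0412 without parental replicate 3. After withdrawal it was 2.68 above parental LIM1215 cells (SE 0.422, 6.42-fold; 3.58 without parental replicate 3).

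**Figure D4:**
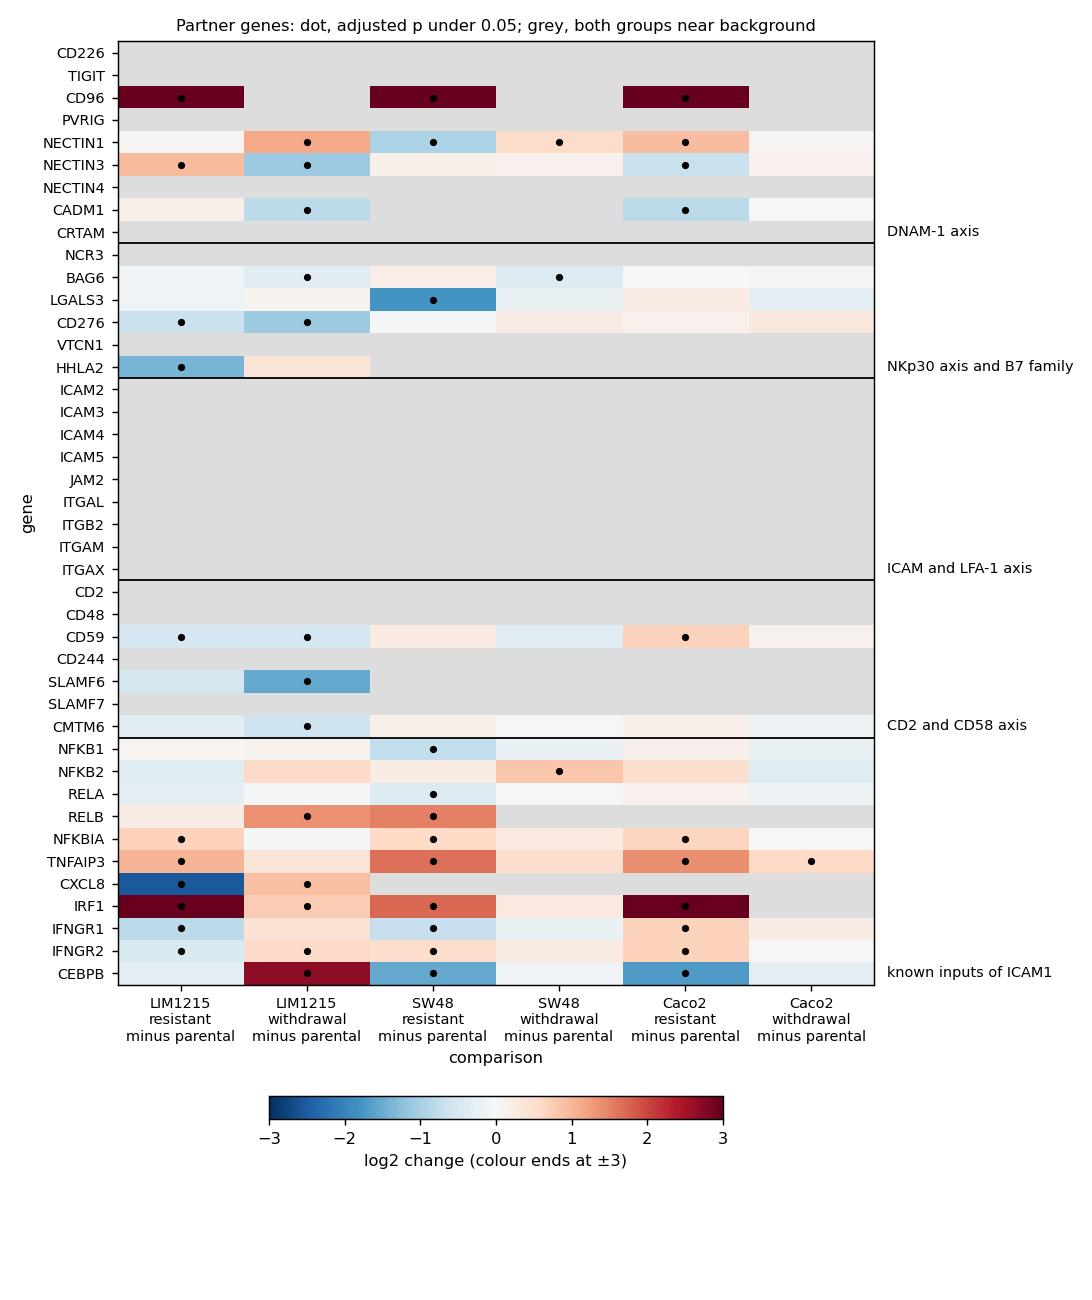
Log2 change of the receptor, family and input genes (rows, grouped by list) for resistant minus parental and withdrawal minus parental in each line (columns); dots passed at an adjusted p under 0.05, and grey cells are near background in both groups. CD96 is dark red in the 3 resistant columns, and the ICAM and LFA-1 rows are grey throughout.

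Across the 27 arrays, each gene centred within its line, the members did not follow a shared course. Pearson's r was -0.584 between the DNAM-1 ligands PVR and NECTIN2, -0.614 between PVR and ICAM1, 0.582 between NECTIN2 and ICAM1, and -0.454 between NCR3LG1 and CD58, and lay between -0.112 and 0.272 for the other 6 pairs. These arrays share lines and states, so the values describe 9 groups rather than 27 independent samples. ICAM1 was near background in all SW48 states, and CD58 in all Caco2 states and in parental and withdrawal SW48 cells. The r values of ICAM1 and CD58 rest in part on such readings. Among 10499 genes above background in at least 1 group, those most like PVR were NFE2L1, a regulator of proteasome genes (r = 0.970), MIA2, an endoplasmic reticulum export factor (0.959), and HERPUD1, a gene of endoplasmic reticulum protein disposal (0.943). NFE2L1 and HERPUD1 changed by -0.45 and -0.64 in resistant LIM1215 and by -0.89 and -1.17 in resistant SW48 cells. Both were picked by their r with PVR on these same arrays, so their likeness to it follows from the choice. In Caco2, where PVR changed by -0.09, they changed by -0.06 and 0.49, so HERPUD1 did not follow PVR there. Most like NECTIN2 were the keratin KRT18 (0.911), the RNA-processing gene THRAP3 (0.877) and the glycosyltransferase B3GNT2 (0.872). For NCR3LG1 they were LAPTM4B, a lysosomal membrane protein (0.907), UGT8, an enzyme of galactolipid synthesis (0.904), and SMARCC1, a chromatin remodelling subunit (0.901). For ICAM1 they were RHOBTB2 (0.885), the readthrough gene PEDS1-UBE2V1 (0.878), whose probes may share sequence with its parent genes, and LITAF, a lysosomal regulator (0.875). For CD58 they were RINL (0.837), ADAP1 (0.792) and CDK11A (0.776), a kinase gene with a near-identical copy. With the 9 group means in place of the arrays, 1 of the 3 genes stayed among the closest for each member but CD58, where 0 did. Without LIM1215 parental replicate 3, 3 stayed for PVR and NECTIN2, 2 for NCR3LG1 and CD58, and 1 for ICAM1.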

How the data were processed

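The deposited file gives each array's value per probe set, read here as log2 intensities. Of how the authors made them (software, background correction, normalization, log base), nothing is stated: not given in the sources used here. Of 24351 probe sets, 2903 are controls (612 negative). Of 21448 transcript probe sets 17709 have 1 symbol (0 several, 3739 not listed), taken from the platform annotation and updated through Entrez identifiers. For 20 genes the brightest probe set was kept, and there was no filter on dim genes. Fits used limma 3.58.1 in R 4.3.3 (lmFit, eBayes) with a mean for each of 9 groups on all 27 arrays, 18 residual and 4.116 prior degrees of freedom. P-values are two-sided, adjusted by Benjamini-Hochberg across 17687 genes within each of 15 contrasts, and the code was tested on simulated data. SE is that of the fit, intervals are 95% and unadjusted. "At least" marks a fold over the 95th percentile of negative controls. The number of arrays limits precision.

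The 5 members and all gene lists were chosen with earlier results of these data known. Besides the members, the text names the 3 genes with the highest r to each and, per list and line, the 2 largest called changes from parental to resistant cells; other listed genes (BAG6, CADM1, PTPRC, LYZ, CD68, IFIT1, genes near background, and NECTIN1, NECTIN3, CXCL8, TNFAIP3 and CEBPB in further comparisons) were chosen after their values were seen. Some listed genes are not analysed here. Replicates were not paired, as the labels do not say that a number marks a shared culture or day. Deviations of same-numbered arrays of a line had r of -0.041 to 0.075. The same number gave the highest r in 4 of 9 pairs in LIM1215, 4 of 9 in SW48 and 6 of 9 in Caco2. Alternatives were quantile normalization, median-centred arrays, a filter on dim genes, eBayes with trend, array weights, all probe sets, the replicate number as a block, each line's arrays alone, and leaving out each array. Promoters are from RefSeq (5 of 5 members matched). Figures used Python 3.11.15 and matplotlib 3.10.9.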

Additional observations from a re-analysis of the deposited data

Results flagged for a closer look

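A test of the difference between lines in the same comparison passed for 18 of 30 member and line combinations (limma, adjusted over all genes). In the 6 contrasts taken singly, 5.31% to 25.9% of all genes passed. For the change from parental to resistant cells, LIM1215 minus SW48 was -1.30 for NECTIN2 and -3.14 for ICAM1, the latter with ICAM1 near background in SW48. LIM1215 minus Caco2 was -0.64 for PVR, 2.48 for NCR3LG1 and -2.25 for ICAM1. SW48 minus Caco2 was -0.93 for PVR, 1.46 for NECTIN2 and 1.86 for NCR3LG1. For the change from parental to withdrawal cells, LIM1215 minus SW48 was 0.85 for PVR, -0.90 for NECTIN2, -1.51 for NCR3LG1, -2.42 for ICAM1 and 1.21 for CD58. LIM1215 minus Caco2 was 0.90 for PVR, -2.45 for ICAM1 and 1.13 for CD58. SW48 minus Caco2 was 0.70 for NECTIN2 and 1.32 for NCR3LG1. The NECTIN2 difference did not pass without SW48 parental replicate 2, SW48 withdrawal replicate 1 or Caco2 withdrawal replicate 3 (0.60 at the lowest). In the differences with SW48 or Caco2 for CD58, that gene was near background in the line compared with, and so was ICAM1 in SW48.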

How the results depend on the processing

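Over 630 refits of the 45 member changes within a line, 0 called changes changed sign, 11 lost their call (in 4 comparisons) and 0 gained one. The lost calls were CD58 in SW48 from parental to resistant cells (0.59 with trend, with the replicate block (adjusted p = 0.0681) and on SW48 arrays alone, 0.55 with array weights, 0.41 to 0.81 leaving out arrays), CD58 in LIM1215 after withdrawal (0.67 to 0.90), NECTIN2 in SW48 after withdrawal (0.65 on SW48 arrays alone, which left 0 members called there) and the fall of ICAM1 in Caco2 after withdrawal (-0.99 to -0.74, leaving 1 to 2 members called). The replicate block changed no other call of a member within a line. Changes near 0 that were not called turned sign: NECTIN2 in resistant LIM1215 cells (0.02 after quantile normalization, 0.03 with array weights, -0.05 to 0.03 leaving out arrays), and after withdrawal PVR (-0.05 to 0.07) and ICAM1 (-0.15 to 0.11) in SW48, NECTIN2 (-0.11 to 0.03) and ICAM1 (-0.07 to 0.18) in Caco2, and CD58 in resistant Caco2 cells (-0.07 to 0.24). So did uncalled differences between SW48 and Caco2 after withdrawal: PVR (-0.01 to 0.11), ICAM1 (0.04 with centred arrays, -0.20 to 0.09 leaving out arrays) and CD58 (0.07 after quantile normalization, -0.27 to 0.07). The genes called in LIM1215 were 3268 with array weights and 1230 on LIM1215 arrays alone for resistant cells, against 1913. For withdrawal against parental LIM1215 cells they were 5956, 2227 and, leaving out arrays, 2260 to 5019, against 3724, and in SW48 380 on its own arrays and 448 to 580, against 722. The cause of these shifts was not tested, beyond fewer arrays in the fits that leave arrays out. Chosen after seeing the data, a search of all 300 bases of each promoter window, to 50 bases past the start, matched a cAMP response element in NECTIN2 and left the other matches as given. Levels near background (ICAM1 in SW48, CD58 in SW48 and Caco2) limit what can be said of these genes.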
